A study of Mus musculus with 96 samples.

Results

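The miR-130 and miR-301 family was followed through 6 mature arms, namely mmu-miR-130a-3p, mmu-miR-130b-3p, mmu-miR-301a-3p, mmu-miR-301b-3p, mmu-miR-130a-5p and mmu-miR-130b-5p (the prefix for mouse is left out from here on), which are 6 of the 1978 mature sequences in every count table. They were taken by name. The small RNA of 4 cell types was sequenced from hearts of male C57Bl/6J mice, 12 to 14 weeks old, in which myocardial infarction (MI) was set off by tying off the left anterior descending coronary artery for good. Hearts were taken on D1, D3, D7, D14 and D28 after MI, and D0 stands for mice that were not operated on, so that surgery and infarct cannot be told apart. Cardiomyocytes (CMs) were enriched by slow centrifugation, hematopoietic cells (HCs) with beads against CD45, endothelial cells (ECs) with beads against CD144, and fibroblasts (FBs) by plating, after which the attached cells were mostly positive for DDR2. Every one of the 24 groups of cell type and day had 4 libraries, 96 in all, and a library was a pool of RNA of 3 mice (2 for an incomplete pool). The study states that on a given day the cell types came from the same mice, so libraries of different cell types are not independent animals. The cells were enriched, not pure, and the RNA was measured in bulk, so a lower level can mean fewer cells that carry a miRNA or less of it per cell.

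MicroRNAs are cut from a hairpin precursor, which yields a 5p and a 3p arm. One arm is usually loaded into the Argonaute complex and pairs with target messages through its seed, bases 2 to 8, while the partner arm is often degraded. The 3p arms of the miR-130 and miR-301 hairpins share a seed and are therefore placed in one family, which is known for repressing targets such as the nuclear receptor gene Pparg and for roles in vessels, fibrosis and blood cell formation.

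The mature sequences show what the members have in common and why some of their reads are hard to tell apart. The letters came from the RefSeq annotation of GRCm38.p6, in which 5 of the 6 members had an entry. For miR-301b-3p the stretch of its hairpin that lines up with miR-301a-3p is shown instead, at chr16:17124420-17124442 on the minus strand of that build. The seed is in capitals, and the sequences run from 5′ to 3′.
mmu-miR-130a-3p: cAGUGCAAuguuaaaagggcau
mmu-miR-130b-3p: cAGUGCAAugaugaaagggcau
mmu-miR-301a-3p: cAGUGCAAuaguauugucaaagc
mmu-miR-130a-5p: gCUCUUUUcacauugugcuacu
mmu-miR-130b-5p: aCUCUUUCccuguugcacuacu
window of the Mir301b hairpin at its 3p arm: cAGUGCAAugguauugucaaagc

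The seed AGUGCAA stood in 7 of the 1738 mature mouse sequences with an entry. Beside 3 members these were miR-130c, miR-721, miR-6341 and miR-6389. Over all 96 libraries miR-130c had 1 count and the other three had 0, against 33292 counts for miR-130a-3p, so the reads with this seed came almost wholly from the family described here. Counted from 1 at the 5′ end, miR-130a-3p and miR-130b-3p differed at 2 positions, U11A and A13G. miR-301a-3p and the window of the Mir301b hairpin differed at 1 position, A10G. How reads that fit both miR-301a-3p and miR-301b-3p were assigned is not given in the sources used here. Their calls may therefore not be separate results, though the counts of calls below take them as 2 members. The 5p arms do not share a seed with the 3p arms, nor does miR-130a-5p share all of its seed with miR-130b-5p.

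The members came from 4 hairpins at 3 places in the genome. On GRCm38, Mir130a lies at chr2:84741115-84741178 on the minus strand and overlaps no annotated gene. Mir301, which yields miR-301a, lies at chr11:87113004-87113089 on the plus strand in an intron of Ska2, a gene for a kinetochore protein on the same strand. Mir130b at chr16:17124061-17124142 and Mir301b at chr16:17124400-17124496 lie 257 bases apart on the minus strand, both in an intron of 2610318N02Rik on that strand. No exon of the host transcripts covered any of these hairpins.

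Depth set what could be seen of each member. CM libraries held 3327351 to 24279105 counts of mature miRNAs, EC libraries 525651 to 29037628, FB libraries 2217588 to 65588543 and HC libraries 18286 to 29504666. The lowest of these, replicate 3 of HCs at D0, stood apart from all other libraries. In it 1 count is worth 54.7 CPM (counts per 1000000 mature counts), so changes against D0 in HCs are given with and without it. Means over all HC libraries include it. Replicate 3 of ECs at D28 and replicate 2 of FBs at D0 were the libraries farthest from the others of their groups. The marker miRNAs of each labelled cell type were found in all of its libraries, and none of the lists of 2 to 4 markers had a member at 0 in any group.

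Among the 3p arms, miR-130a-3p led in most cell types and the family was made up differently in HCs. Over 24 libraries each, CMs had a mean level of miR-130a-3p of 48.1 CPM ± 40.0 (SD, n = 24), ECs of 36.7 ± 12.2 (SD, n = 24), FBs of 25.5 ± 6.42 (SD, n = 24) and HCs of 12 ± 9.80 (SD, n = 24). The large SD in CMs came with a wide range over the days, from 3.18 to 127 CPM. The SD in HCs includes the 54.7 CPM of replicate 3 of D0, which rests on 1 count. With the counts of the 24 libraries pooled, miR-130a-3p held 81.4% of the summed 3p counts of the family in CMs, 90.2% in ECs and 83.1% in FBs, but 31.6% in HCs. In HCs miR-130b-3p held 26.8%, miR-301a-3p 22.1% and miR-301b-3p 19.5%. Before MI it also led in HCs, with 62.0% of these counts at D0.

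**Figure D1:**
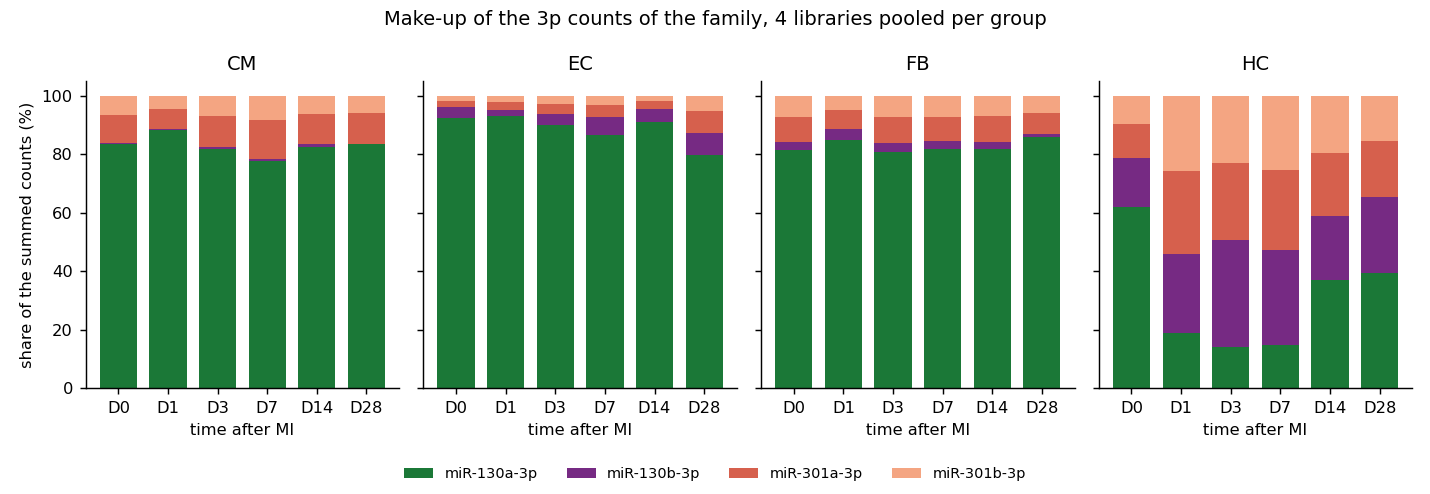
Share of each 3p arm, in percent of the summed counts of the 4 arms, for each cell type (panels) and day (bars), with the 4 libraries of a group pooled. miR-130a-3p takes 77.8% or more in every group of CMs, ECs and FBs, and goes in HCs from 62.0% at D0 to 14.1% at D3 before it reaches 39.4% at D28.

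The members that HCs had more of were miR-130b-5p, miR-130b-3p and, against ECs and FBs, the miR-301 arms. miR-130b-5p had a mean of 103.8 CPM ± 58.3 (SD, n = 24) in HCs, against 4.82 ± 2.13 (SD, n = 24) in FBs, 3.42 ± 2.44 (SD, n = 24) in ECs and 0.771 ± 0.677 (SD, n = 24) in CMs. Its lowest HC library, at 37.1 CPM, lay above its highest library of any other cell type, which was an EC library at 9.99 CPM. miR-130b-3p followed with 10.7 CPM ± 7.12 (SD, n = 24) in HCs and means of 0.412 to 1.71 CPM elsewhere. miR-301a-3p was at 9.09 CPM ± 5.41 (SD, n = 24) in HCs, 6.72 ± 6.77 (SD, n = 24) in CMs, 2.46 ± 0.952 (SD, n = 24) in FBs and 1.08 ± 0.806 (SD, n = 24) in ECs. miR-301b-3p had the same order, from 8.0 CPM in HCs and 4.02 CPM in CMs to 2.01 CPM in FBs and 0.762 CPM in ECs. miR-130a-5p was low throughout, with means of 0.200 CPM in HCs to 2.25 CPM in ECs.

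Cell types were compared on all 96 libraries with edgeR, as the mean of the 6 day means in one against that in another, after scaling with TMM factors, which correct library sizes for the few miRNAs that take most of the counts. The libraries were treated as independent in this fit. Of the 36 differences between 2 cell types (6 members, 6 pairs), 34 passed an adjusted p of 0.05, where 76.3% of all tests on the 712 miRNAs did. These include miR-130b-3p, miR-301a-3p and miR-301b-3p in ECs and miR-130a-5p in HCs, which had too few counts to be tested within those cell types. miR-130b-5p was higher in HCs than in each other cell type, with log2 differences of -5.17 for CMs minus HCs (edgeR, adjusted p = 2.60e-46), -4.15 for ECs minus HCs (edgeR, adjusted p = 1.42e-40) and -3.72 for FBs minus HCs (edgeR, adjusted p = 6.01e-42). miR-130a-3p was higher in ECs than in FBs by 0.61 (edgeR, adjusted p = 2.53e-06), higher in ECs than in HCs by 2.56 (edgeR, adjusted p = 1.40e-33) and higher in FBs than in HCs by 1.95 (edgeR, adjusted p = 2.75e-27), all on the log2 scale. The neighbours in the order of levels that did not pass were CMs and ECs for miR-130a-5p (log2 difference 0.54, SE 0.32, edgeR, adjusted p = 0.13) and CMs and FBs for miR-130b-3p (-0.57, SE 0.32, edgeR, adjusted p = 0.10). Without the libraries numbered 1, in which ECs at D28 have their 1 count of miR-130a-5p, its differences of ECs from FBs (0.40) and from HCs (2.72) no longer passed (edgeR, adjusted p = 1.00 in both). The difference of miR-130b-5p between ECs and FBs, of -0.43, was lost without the libraries numbered 1 or 2 (edgeR, adjusted p = 0.15 and 0.099). The farthest libraries were replicate 3 of HCs at D0, replicate 3 of ECs at D28 and replicate 2 of FBs at D0. Without them all 36 differences kept their sign and call.

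In 4 differences, all of CMs from another cell type, the direction depended on the scaling. The other differences kept their sign, though those of miR-130a-5p and miR-301b-3p between CMs and FBs were not called with library size alone. Sizes depended on the scaling too, as every difference of CMs from another cell type was lower with library size alone. For CMs minus HCs, miR-130a-3p went from 3.83 to 1.68 and miR-130b-5p from -5.17 to -7.37 on the log2 scale. The TMM factors over all 96 libraries ran from 0.11 to 0.80 in CMs, below those of every HC library. Which scaling is closer to the true levels was not tested. With TMM factors, miR-130a-3p was higher in CMs than in ECs by 1.26 on the log2 scale (edgeR, adjusted p = 7.65e-17), while with library size alone the difference was -0.15 (edgeR, adjusted p = 0.37). miR-301a-3p was higher in CMs than in HCs by 1.07 with TMM factors (edgeR, adjusted p = 1.52e-07) and lower by library size, at -1.04 (edgeR, adjusted p = 2.49e-06). miR-301b-3p turned in the same way, from 0.59 (edgeR, adjusted p = 0.0018) to -1.53 (edgeR, adjusted p = 2.58e-11), and was at 0.14 with TMM factors without the libraries numbered 3 (edgeR, adjusted p = 0.58). RNA input, PCR cycles and the batch of library preparation also went with the cell type (500 ng and 14 cycles in CMs, 50 ng and 16 cycles in ECs, 150 ng and 15 cycles in FBs and HCs) and cannot be told apart from it.

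**Figure D2:**
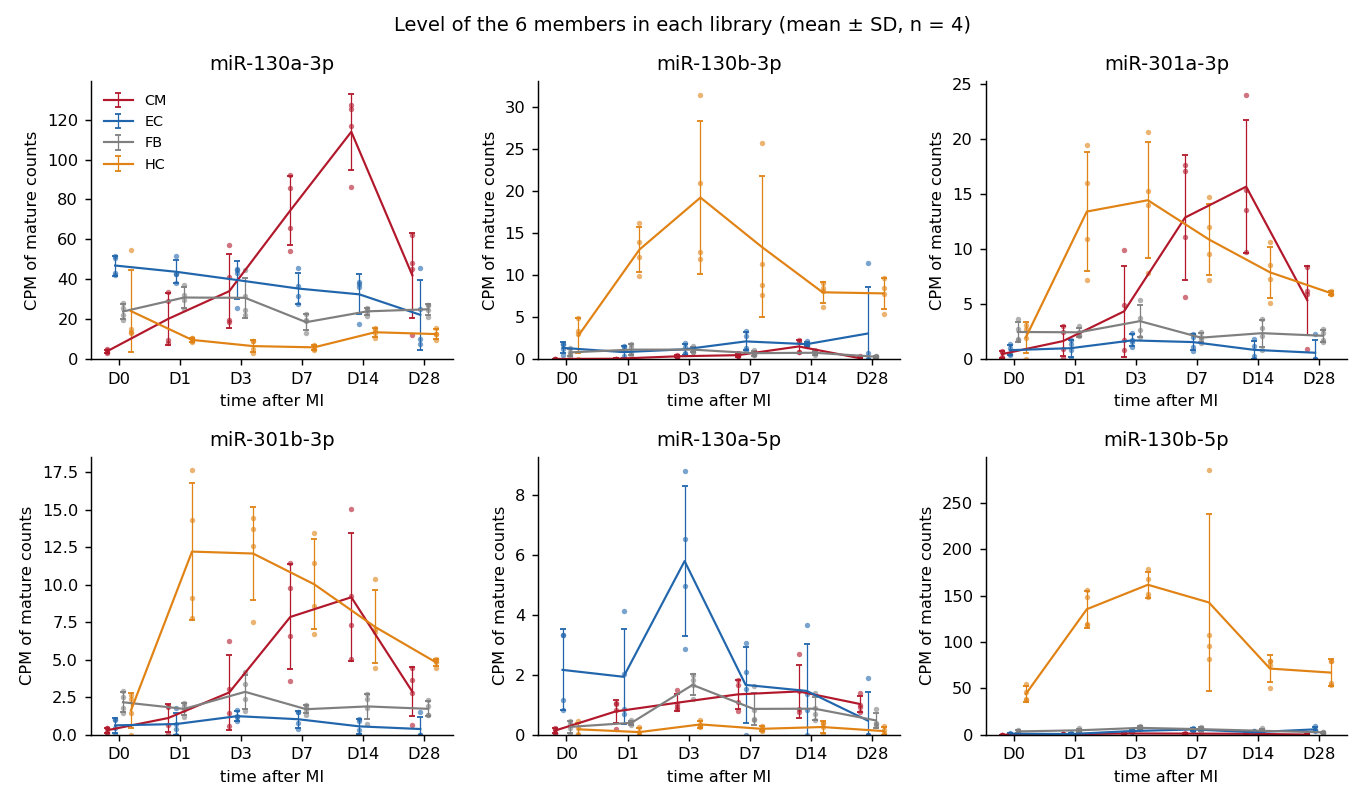
CPM of each of the 6 members (panels) by day after MI, with 1 point per library and mean ± SD of 4 libraries per group, coloured by cell type. miR-130a-3p climbs in CMs from 3.93 CPM at D0 to 114 CPM at D14, while in HCs miR-130b-5p stands at 162 CPM at D3 and its highest library in any other cell type has 9.99 CPM. The HC point at 54.7 CPM for miR-130a-3p at D0 is the library with 18286 counts.

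In HCs the family split after MI. Levels of miR-130b-3p, miR-130b-5p, miR-301a-3p and miR-301b-3p rose within 1 day and stayed up through D7, while miR-130a-3p fell over the same days. At D0, miR-130a-3p stood at 12.9, 15, 54.7 and 13.6 CPM in the 4 libraries, the third of which rests on 1 count. At D3 it was at 4.92, 8.85, 3.05 and 9.24 CPM and at D7 at 4.62, 5.17, 6.56 and 7.19 CPM. Each library of D1, D3 and D7 lay below every library of D0. The change was -1.0 on the log2 scale at D1 (SE 0.27, edgeR, adjusted p = 0.0026), -1.66 at D3 (SE 0.27, edgeR, adjusted p = 8.86e-06) and -1.67 at D7 (SE 0.27, edgeR, adjusted p = 1.15e-05). At D14 (10.4 to 15.8 CPM) and D28 (9.35 to 15.7 CPM) its levels overlapped those of D0 and the change did not pass.

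miR-130b-5p is the most abundant member in HCs and the partner arm of miR-130b-3p. It stood at 45.9, 37.1, 54.7 and 38.1 CPM at D0, again with 1 count behind the third value. It was at 156, 119, 118 and 149 CPM at D1, at 169, 152, 179 and 148 CPM at D3 and at 95.7, 286, 108 and 82.0 CPM at D7. The libraries of D3 lay close together, whereas at D7 replicate 2 stood far above the rest. The rise was 1.31 at D1 (SE 0.29, edgeR, adjusted p = 5.63e-04), 1.48 at D3 (SE 0.29, edgeR, adjusted p = 1.19e-04) and 1.40 at D7 (SE 0.29, edgeR, adjusted p = 3.31e-04), on the log2 scale. Without replicate 2 of D7 the change at D7 was 0.76 and still passed. Levels at D14 (50.3 to 80.1 CPM) and D28 (53.8 to 79.8 CPM) were not called.

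miR-130b-3p went the same way at a lower level. It had 4.92, 2.97, 0 and 3.29 CPM at D0, 12.7, 21, 11.9 and 31.4 CPM at D3 and 5.42, 9.69, 8.50 and 7.70 CPM at D28. All libraries of D1, D3 and D7 lay above all of D0. The change was largest at D3, at 1.80 (SE 0.34, edgeR, adjusted p = 6.94e-05), and was 1.37 at D1 (SE 0.34, edgeR, adjusted p = 0.0015) and 1.43 at D7 (SE 0.34, edgeR, adjusted p = 0.0010). At D7 replicate 2 stood at 25.8 CPM and the others at 7.66 to 11.3 CPM, and without it the change was 0.84 and still passed (edgeR, adjusted p = 0.015).

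The 2 miR-301 arms rose the most in HCs and, with TMM factors, were the only members still called at D14 and D28. With library size alone miR-130b-3p was also called at D14 (1.10, edgeR, adjusted p = 0.018) and at D28 (1.08, edgeR, adjusted p = 0.020), and miR-130b-5p at D14 (0.82, edgeR, adjusted p = 0.031). miR-301a-3p stood at 3.14, 1.92, 0 and 2.78 CPM at D0, at 7.23, 10.9, 16 and 19.5 CPM at D1 and at 15.3, 14.0, 7.86 and 20.6 CPM at D3. By D28 its 4 libraries lay between 5.88 and 6.23 CPM, still above every library of D0. Its change was 1.92 at D1 (SE 0.32, edgeR, adjusted p = 1.68e-05), 1.89 at D3 (SE 0.32, edgeR, adjusted p = 1.25e-05), 1.24 at D14 (SE 0.31, edgeR, adjusted p = 0.0042) and 0.89 at D28 (SE 0.31, edgeR, adjusted p = 0.035). miR-301b-3p changed by 2.05 at D1 (SE 0.31, edgeR, adjusted p = 4.64e-06) and by 0.84 at D28 (SE 0.30, edgeR, adjusted p = 0.039). The calls at D28 were fragile. Leaving out any 1 of the 8 libraries compared other than replicate 3 of D0 took miR-301a-3p to an adjusted p of 0.051 to 0.17 in edgeR, and miR-301b-3p to 0.051 to 0.20. Without that replicate 3, which holds 18286 counts, the adjusted p of miR-301a-3p in edgeR was 0.043 over the same 608 miRNAs and 0.054 when the filter on low counts was set again.

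In all, 19 of 25 changes against D0 were called in HCs, 16 up and 3 down, where 43% of all such tests in HCs were called, 22.8% up and 20.2% down. By day, 5 of 5 tested members passed at D1 (54.3% of the 608 miRNAs tested), 5 of 5 at D3 (59%), 5 of 5 at D7 (49.5%), 2 of 5 at D14 (28.1%) and 2 of 5 at D28 (24%). miR-130a-5p was too low in HCs to be tested, with at most 13 counts in a library. Without replicate 3 of D0, the D0 means were 13.8 CPM ± 1.05 (SD, n = 3) for miR-130a-3p, 40.4 ± 4.81 (SD, n = 3) for miR-130b-5p, 3.72 ± 1.04 (SD, n = 3) for miR-130b-3p, 2.61 ± 0.626 (SD, n = 3) for miR-301a-3p and 2.17 ± 0.607 (SD, n = 3) for miR-301b-3p, and the 17 calls before D28 held. The fall of miR-130a-3p at D1 was not called with library size alone (-0.56, edgeR, adjusted p = 0.085) or by DESeq2 (adjusted p = 0.050).

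Markers of other cells moved in HCs over the same days. The summed level of the 2 markers of mural cells, miR-143-3p and miR-145a-5p, was 21694 to 32350 CPM at D0 and 5660 to 8954 CPM at D7, and that of the 2 endothelial markers, miR-126a-3p and miR-126a-5p, was 54905 to 91837 CPM at D0 and 16579 to 24855 CPM at D7. The 4 hematopoietic markers, which include miR-223-3p of myeloid cells and miR-142a, summed to 6819 to 10015 CPM at D0 and 18244 to 25731 CPM at D1, although miR-150-5p, one of the 4, had 2242 to 4024 CPM at D0 and 1529 to 2410 CPM at D1. The 4 cardiomyocyte markers summed to 85776 to 132287 CPM at D0 and 25975 to 45415 CPM at D7, and the 2 red blood cell markers to 54.7 to 144 CPM and 59.9 to 113 CPM. The 2 fibroblast markers, miR-199a-5p and miR-214-3p, summed to 821 to 955 CPM at D0, 1009 to 1579 CPM at D7 and 2714 to 4683 CPM at D28. None of these markers was at 0 in any group of HCs. The mural, endothelial and cardiomyocyte sums were thus lower at D7, when miR-130a-3p was lower, and the hematopoietic sum was higher at D1, when the other members were higher. At D28, when miR-130a-3p overlapped its D0 levels, the mural sum was still at 7132 to 9464 CPM. The endothelial sum was then at 19379 to 23996 CPM, the cardiomyocyte sum at 26273 to 42688 CPM and the hematopoietic sum at 8248 to 12121 CPM. The part of these shifts in the changes of the family was not tested.

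In CMs every call was a rise. The level of miR-130a-3p was 4.38, 3.33, 3.18 and 4.82 CPM in the libraries of D0, 54.4, 92.2, 65.6 and 85.7 CPM at D7, 125, 86.3, 117 and 127 CPM at D14 and 12.2, 45.3, 62.2 and 48.3 CPM at D28. The level at D1 was 8.24, 9.51, 33.5 and 29.3 CPM, and at D3 it was 19.5, 18.6, 57.0 and 41.0 CPM. The TMM factors of the D1 libraries were split in the same way, at 0.491, 0.543, 1.07 and 1.04. No library after MI overlapped D0, and the levels were highest at D14. With TMM factors, which ran from 0.289 to 0.357 in CMs at D0, the log2 change was 0.97 at D1 (SE 0.31, edgeR, adjusted p = 0.029), 1.93 at D7 (SE 0.32, edgeR, adjusted p = 2.06e-05), 2.27 at D14 (SE 0.32, edgeR, adjusted p = 3.62e-06) and 1.55 at D28 (SE 0.32, edgeR, adjusted p = 3.66e-04). With library size alone the changes at D1, D7, D14 and D28 came to 2.36, 4.24, 4.86 and 3.42, but on that scale the median of all 484 miRNAs tested also rose, by 1.42 at D1 and 2.99 at D14. Relative to the median miRNA, miR-130a-3p was up by 1.86 at D14 with TMM factors and by 1.87 with library size. The call at D1 was lost without replicate 2 or 3 of D0 or replicate 3 or 4 of D1 (edgeR, adjusted p = 0.054 to 0.13).

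Both miR-301 arms were called in CMs at D7 and D14, and miR-301a-3p alone at D28. miR-301a-3p had 8, 2, 11 and 3 counts at D0, 78, 216, 173 and 299 counts at D7 and 54, 70, 80 and 229 counts at D14, or 0.142 to 0.762 CPM, 5.67 to 17.6 CPM and 9.77 to 24 CPM. Its change was 2.46 at D7 (SE 0.67, edgeR, adjusted p = 0.0025), 2.5 at D14 (SE 0.67, edgeR, adjusted p = 0.0025) and 1.67 at D28 (SE 0.67, edgeR, adjusted p = 0.039). The call at D28 was lost when any 1 of 5 of the 8 libraries was left out (replicates 2 and 4 of D0, replicates 2, 3 and 4 of D28), with an adjusted p of up to 0.13 in edgeR. At D1 and D3 the libraries spread from 0.124 to 9.91 CPM, and neither day was called. miR-301b-3p, with 0.142 to 0.476 CPM at D0, was at 5.07 to 15 CPM at D14 and changed by 2.30 (SE 0.65, edgeR, adjusted p = 0.0036). At D28 its change was 1.37 and missed the threshold (edgeR, adjusted p = 0.084).

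The miR-130b arms were near the limit of detection in CMs, where a fall from D0 could hardly have been seen. miR-130b-3p had 0, 0, 1 and 0 counts at D0 and 11, 12, 3 and 12 counts at D14, which passed (log2 change 3.52, edgeR, adjusted p = 0.0034). Without replicate 3 of D0 the change was 6.46, fitted against a D0 with no count. Pooled over the libraries, the ratio of CPM was 70.5, with an exact 95% counting interval of 11.9 to 2858. miR-130b-5p had 0, 3, 2 and 1 counts at D0 and 15, 32, 13 and 17 at D3 (log2 change 1.77, SE 0.67, edgeR, adjusted p = 0.028), a call that was lost when any 1 of 6 of the 8 libraries was left out (replicates 1, 3 and 4 of D0, replicates 1, 2 and 4 of D3; adjusted p of up to 0.10 in edgeR). miR-130a-5p, at 1 to 3 counts per library at D0, had no call at any day with TMM factors (edgeR, adjusted p = 0.081 to 0.33), with an unadjusted p under 0.05 at D28 alone. With library size alone it was called up at all 5 days.

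Of 30 changes against D0 in CMs, 12 were called with TMM factors, all up, where 30.4% of all tests were called up and 23.8% down (54.1% in all). By day these were 1 of 6 members at D1 (25% of the 484 miRNAs tested), then 2 of 6 at D3 (55.2%), 3 of 6 at D7 (69%), 4 of 6 at D14 (67.1%) and lastly 2 of 6 at D28 (54.3%). With library size alone 25 of 30 were called, all up, where 73.7% of all tests were called up and 5% down (78.7% in all). In CPM, some markers of other cells also rose in CMs. With library size alone the median of the 484 miRNAs rose as well, by 2.99 at D14 on the log2 scale. Whether these markers rose by more than that was not tested. The fibroblast markers summed to 13.6 to 32.7 CPM at D0 and to 607 to 1222 CPM at D14, the endothelial markers to 4423 to 9789 CPM and 19277 to 27651 CPM, and the hematopoietic markers to 14.6 to 75.8 CPM and 151 to 182 CPM. The summed mural markers went from 22682 to 36325 CPM at D0 to 15754 to 18619 CPM at D14. Of these, miR-143-3p fell, while miR-145a-5p rose from 249 to 676 CPM to 1759 to 2080 CPM. The summed cardiomyocyte markers, mostly miR-1a-3p, went from 603382 to 709040 CPM to 311247 to 419381 CPM. The other cardiomyocyte markers rose in CPM. miR-133a-3p went from 182 to 903 CPM to 5095 to 7894 CPM. miR-208a-3p went from 78.6 to 173 CPM to 1633 to 3974 CPM, and miR-499-5p from 912 to 1609 CPM to 10828 to 13228 CPM. No marker was at 0 in any of these groups, and the part of other cells in the rise of the family in CMs was not tested. At D14, miR-130a-3p in CMs (86.3 to 127 CPM) was above its level in every library of the other 3 cell types, of which the highest with more than 1 count had 51.6 CPM.

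**Figure D3:**
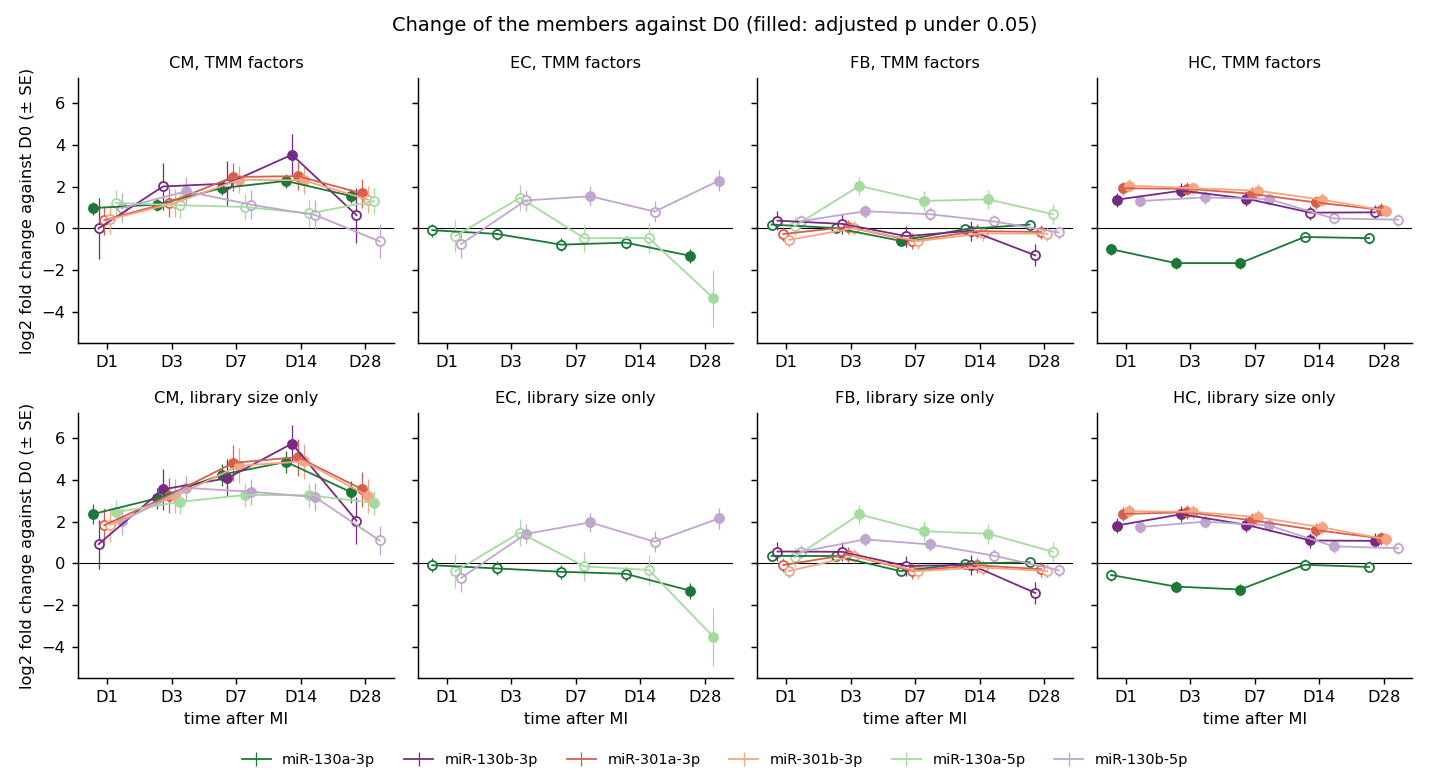
Log2 fold change against D0, with SE, of the members tested in each cell type (columns), with TMM factors (upper row) and with library size alone (lower row). Filled points have an adjusted p under 0.05. In HCs miR-130a-3p lies below 0 and the other members above it, in CMs miR-130a-3p reaches 2.27 at D14 on the upper row and all 6 lines lie higher on the lower row, and in FBs most points are open.

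In ECs, 3 members were tested, since miR-130b-3p, miR-301a-3p and miR-301b-3p had too few counts. miR-130a-3p, the main member there, had fallen by D28. It stood at 51.6, 43.2, 41.9 and 50.8 CPM at D0, at 37.4, 36.2, 38.9 and 17.4 CPM at D14 and at 45.7, 7.65, 25.2 and 10.2 CPM at D28. The libraries of D28 hold 24, 14, 16 and 40 counts of it, and replicate 1 overlaps D0. The change at D28 was -1.31 (SE 0.34, edgeR, adjusted p = 0.0023), and it ran from -1.09 without replicate 2 of D28 to -1.93 without replicate 1. At D7 it was -0.78 and missed the threshold (edgeR, adjusted p = 0.063), which it passed without replicate 3 of D28 (-0.86, edgeR, adjusted p = 0.027). At D14 all libraries lay below D0, but the change of -0.68 did not pass (edgeR, adjusted p = 0.13).

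The partner arm of miR-130b rose in ECs while miR-130a-3p fell. miR-130b-5p had 1.17, 0.503, 2.44 and 0.95 CPM at D0, 4.49, 7.49, 6.26 and 4.73 CPM at D7 and 3.8, 4.92, 4.72 and 9.99 CPM at D28. No library of D7 or D28 overlapped D0. The change was 1.54 at D7 (SE 0.48, edgeR, adjusted p = 0.018) and 2.29 at D28 (SE 0.52, edgeR, adjusted p = 7.91e-04). Replicate 3 of D0 was the highest of its group, and without it the changes were 2.49 at D7 and 3.24 at D28. The call at D7 was lost without replicate 2 of D0 (edgeR, adjusted p = 0.093). The counts behind D28 are small, with 2, 9, 3 and 39 reads, and without replicate 4 of D28 the change there was 1.57 (edgeR, adjusted p = 0.037). miR-130a-5p had 47 counts in the 4 libraries of D0 and 1 in those of D28, a ratio of CPM of 10.4 for D0 over D28 with an exact 95% counting interval of 1.78 to 420. Its call at D28 (edgeR, adjusted p = 0.046) was lost when replicate 2 or 4 of D0 or replicate 2, 3 or 4 of D28 was left out, with an adjusted p of up to 0.20 in edgeR.

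Of 15 changes against D0 in ECs, 4 were called, 2 up and 2 down, where 20.3% of all tests were, 14.3% up and 6.03% down. They were 1 of 3 members at D7 (22.6% of the 421 miRNAs tested) and 3 of 3 at D28 (47%). Without replicate 2 of D0 the count was 2, and without replicate 1 of D28 it was 7. The endothelial markers summed to 174749 to 215247 CPM at D0 and spread from 103768 to 224231 CPM at D28, and the cardiomyocyte markers summed to 75957 to 134289 CPM at D0 and 21003 to 80702 CPM at D28. The mural markers summed to 48200 to 62913 CPM at D0 and to 22370 to 102093 CPM at D28. The fibroblast markers summed to 502 to 626 CPM at D0, 1643 to 3018 CPM at D7 and 259 to 1518 CPM at D28, and the hematopoietic markers to 2221 to 2597 CPM, 2275 to 3091 CPM and 982 to 3318 CPM. At D7 the endothelial markers were at 186435 to 221263 CPM and the cardiomyocyte markers at 39746 to 80553 CPM. Their part in the changes was not tested.

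In FBs the 3p arms had 1 call among them. miR-130a-3p had 22.1, 19.4, 25.7 and 28.1 CPM at D0, 13.1, 19.1, 19.5 and 22.4 CPM at D7 and 26.9, 21, 24.7 and 27.3 CPM at D28. These ranges overlap, and the only call for a 3p arm was its dip at D7, of -0.60 (SE 0.21, edgeR, adjusted p = 0.019). It was lost without replicate 3 or 4 of D0 or replicate 1 of D7 (edgeR, adjusted p = 0.059 to 0.076) and with library size alone (-0.37, edgeR, adjusted p = 0.16). miR-301a-3p stayed between 0.799 and 5.39 CPM in all 24 libraries and miR-301b-3p between 0.727 and 4.16 CPM, with no call at any day in edgeR and no unadjusted p under 0.05 either. Their fitted log2 changes against D0 ran from -0.60 to 0.07 and from -0.61 to 0.01.

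The other 4 calls in FBs fell on the 5p arms. miR-130a-5p had 0.365, 0, 0.229 and 0.468 CPM at D0, which is 0 to 7 counts, and 1.99, 1.19, 1.83 and 1.66 CPM at D3, which is 12 to 36 counts. All 4 libraries of D3 lay above D0, with a change of 2.04 on the log2 scale (SE 0.44, edgeR, adjusted p = 5.13e-04). It was also called at D7 (1.31, SE 0.47, edgeR, adjusted p = 0.023) and at D14 (1.39, SE 0.46, edgeR, adjusted p = 0.029). The call at D7 was lost without replicate 3 of D0 or replicate 4 of D7 (0.83 without the latter), and that at D14 without replicate 1 or 3 of D0 or replicate 3 of D14 (edgeR, adjusted p = 0.061 to 0.17). miR-130b-5p rose from 2.76, 5.41, 4.12 and 2.19 CPM at D0 to 6.50, 9.39, 8.01 and 5.90 CPM at D3, a change of 0.82 (SE 0.32, edgeR, adjusted p = 0.039) that was lost without replicate 1 or 4 of D0 or replicate 2 or 3 of D3 (edgeR, adjusted p = 0.061 to 0.15). Of 30 changes against D0 in FBs, 5 were called, 4 up and 1 down, where 25.6% of all tests were, 14.5% up and 11.1% down. They were 2 of 6 members at D3 (43% of the 563 miRNAs tested), 2 at D7 (45.6%) and 1 at D14 (24.7%). The count was 3 without replicate 1 or 4 of D0 and 2 without replicate 3 of D0. The fibroblast markers summed to 10204 to 17342 CPM at D0 and to 15415 to 25530 CPM at D3, while the hematopoietic markers summed to 222 to 236 CPM at D0 and 177 to 333 CPM at D3.

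Over all days together, 5 of 6 members varied in CMs (73.8% of all miRNAs tested there), 3 of 3 in ECs (58.2%), 3 of 6 in FBs (68.2%) and 5 of 5 in HCs (73.5%), by edgeR's test of the 5 days at once. In FBs the number was 1 without replicate 1 of D7. In CMs miR-130a-5p did not pass (edgeR, adjusted p = 0.41). In FBs miR-130b-3p, miR-301a-3p and miR-301b-3p did not (edgeR, adjusted p = 0.052, 0.55 and 0.38). Missing the threshold does not show a steady level. miR-130b-3p in FBs, for one, was called lower at D28 than at D3 (-1.51, edgeR, adjusted p = 0.016).

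Whether a member took another course in one cell type than in the others was tested on all 96 libraries at once. All 6 members did so, where 76.3% of the 712 miRNAs did. The count filter was set over all groups at once here. It let in miR-130b-3p, miR-301a-3p and miR-301b-3p in ECs and miR-130a-5p in HCs, which were too low to be tested there alone. The F test of cell type and day gave an adjusted p in edgeR of 5.93e-13 for miR-130a-3p, 3.46e-05 for miR-130b-5p, 6.00e-05 for miR-130b-3p, 9.20e-05 for miR-301b-3p, 9.83e-05 for miR-301a-3p and 0.0090 for miR-130a-5p. That of miR-130a-5p was lost without the libraries numbered 3 (edgeR, adjusted p = 0.15) or those numbered 4 (edgeR, adjusted p = 0.072). Set against the average of the remaining 3 cell types, miR-130a-3p rose more in CMs at each day, by 3.24 on the log2 scale at D7 (SE 0.34, edgeR, adjusted p = 1.35e-12). It fell more in HCs, by -2.11 at D3 (SE 0.35, edgeR, adjusted p = 8.27e-07), and in ECs, by -1.98 at D28 (SE 0.36, edgeR, adjusted p = 4.86e-06). In FBs no day passed for it with TMM factors, with differences of -0.50 to 0.35, while with library size alone D7 (-1.23, edgeR, adjusted p = 0.0076) and D14 (-1.43, edgeR, adjusted p = 0.0017) did. miR-301a-3p rose more in CMs at D14, by 2.51 (SE 0.61, edgeR, adjusted p = 3.30e-04), and more in HCs at D1, by 1.51 (SE 0.56, edgeR, adjusted p = 0.034), and it changed less in FBs at D7, by -2.15 (SE 0.56, edgeR, adjusted p = 0.0016). These differences share their D0 libraries across days.

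Late levels were set against those of the first week. In HCs, miR-130a-3p was higher at D28 than at D3 by 1.19 (SE 0.26, edgeR, adjusted p = 3.50e-04), and the other 4 tested members were lower, by log2 differences of -1.0 to -1.08, all called. This is 5 of 5 members called, where 55.1% of the miRNAs tested in HCs were. Against D7, 4 of 5 were called in HCs (30.8% of all), 2 of 6 in FBs (40.3%) and 1 of 6 in CMs (20.5%). In FBs, 3 of 6 members were lower at D28 than at D3 (41.6% of all called), namely miR-130a-5p (-1.36, edgeR, adjusted p = 0.0054), miR-130b-5p (-1.02, edgeR, adjusted p = 0.0090) and miR-130b-3p (-1.51, edgeR, adjusted p = 0.016). In ECs, 2 of 3 were (49.9% of all), miR-130a-3p by -1.05 (edgeR, adjusted p = 0.012) and miR-130a-5p. Against D7, 0 of 3 were called in ECs by edgeR (37.8% of all), with differences of -2.86 for miR-130a-5p (adjusted p = 0.10), -0.53 for miR-130a-3p and 0.75 for miR-130b-5p (adjusted p = 0.22 for both). By an unadjusted p under 0.05 it was 1, by DESeq2 0 and with library size alone 2. In CMs miR-130b-5p alone was lower at D28 than at D3, by -2.40 (edgeR, adjusted p = 0.0096), where 6.4% of all were called. It had 2 to 6 counts per library at D28.

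The hairpins of the family differed in which arm was counted. For mir-130a the 3p arm dominated everywhere, and the 5p arm had 2.12% of the counts of both arms in CMs (exact 95% interval 1.88% to 2.38%), 7.12% in ECs (6.44% to 7.85%; median library 3.99%), 2.86% in FBs (2.57% to 3.17%) and 1.85% in HCs (1.44% to 2.34%), with the 24 libraries pooled. In ECs 190 of the 372 counts of the 5p arm came from replicate 2 of D3, and the share at D3 was 12.7% (11.2% to 14.3%). For mir-130b the 5p arm had the larger pooled share, with 71.9% in CMs (66.6% to 76.7%), 66.6% in ECs (62.8% to 70.2%), 85.7% in FBs (84.3% to 87.0%) and 90.4% in HCs (90.1% to 90.7%). By day it was not the larger arm in each group. In CMs at D14 it had 8, 11, 1 and 7 counts against 11, 12, 3 and 12 of the 3p arm, a share of 41.5% (29.4% to 54.4%), and in ECs its share was 52.3% at D0 (42.6% to 61.8%) and 47.1% at D1 (23.0% to 72.2%). These intervals cover counting error only. The most abundant member in HCs, miR-130b-5p, is therefore the arm without the seed of the family. In HCs the mean log2 ratio of 5p to 3p of mir-130b was 2.99 to 3.39 by day (3.46 at D0 without replicate 3), and no change over the days was called (limma, adjusted p = 0.91).

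**Figure D4:**
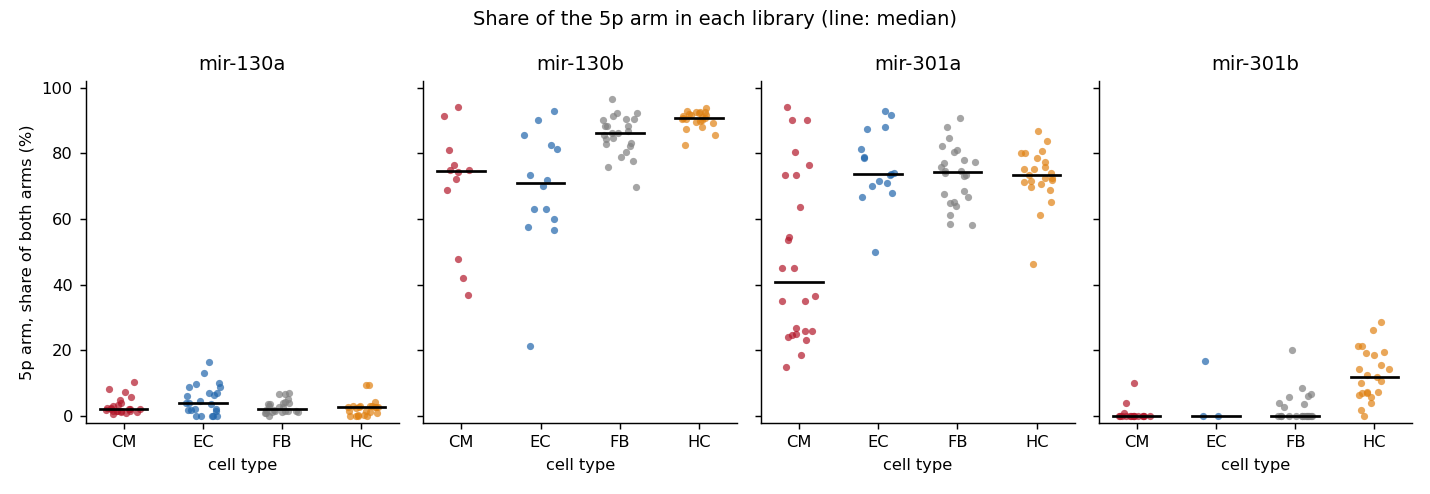
Share of the 5p arm in the counts of both arms, in percent, for each library with at least 10 counts on the 2 arms together, by hairpin (panels) and cell type, with the median as a line. mir-130a lies at or below 16.5% throughout, mir-130b spreads from 21.4% in ECs to 96.5% in FBs, and mir-301a in CMs spreads from 14.9% to 94.2%.

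The ratio of the arms over the days was called for 1 of the 5 tests on mir-130a and mir-130b that had enough counts, where 41.6% of all such tests were called. In FBs, the mean log2 ratio of miR-130a-5p to miR-130a-3p was -6.18 ± 0.432 (SD, n = 4) at D0, -6.19 ± 0.433 (SD, n = 4) at D1, -4.14 ± 0.503 (SD, n = 4) at D3 and -5.73 ± 0.590 (SD, n = 4) at D28 (limma, adjusted p = 1.16e-04). The 4 libraries of D3 did not overlap those of D0. mir-130a in CMs (limma, adjusted p = 0.065) and ECs (limma, adjusted p = 0.13) and mir-130b in FBs (limma, adjusted p = 0.20) missed the threshold.

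mir-301a, whose 5p arm is not among the 6 members, was looked at after its counts had been seen. miR-301a-5p held 36.7% of the counts of both arms in CMs (34.9% to 38.5%) and 73.3% to 76.1% in the other cell types. In CMs its 5p arm had 22, 18, 9 and 27 counts at D0 against 8, 2, 11 and 3 for the 3p arm, and 18, 16, 14 and 73 counts at D14 against 54, 70, 80 and 229. The arm with the seed of the family was the minor one in 3 of the 4 libraries of D0 and the major one in all 4 of D14. The mean log2 ratio of 5p to 3p was 1.75 ± 1.53 (SD, n = 4) in the unoperated mice and -1.94 ± 0.425 (SD, n = 4) at D14, and it varied over the days (limma, adjusted p = 0.0095; 70.7% of the hairpins tested in CMs were called). In FBs it went up, from 0.748 ± 0.248 (SD, n = 4) at D1 to 2.37 ± 0.316 (SD, n = 4) at D7 (limma, adjusted p = 0.014; 49.7% of those tested in FBs). In HCs it did not pass (limma, adjusted p = 0.94). A ratio of this kind shows unequal change of the arms and is free of the scaling between libraries.

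The counts of miR-301b-3p followed those of miR-301a-3p. They were at or below those of miR-301a-3p in 95 of the 96 libraries, and the group means of the 2 arms had a Pearson r of 0.99 over 24 groups, which share their libraries. The hairpins are on different chromosomes, and miR-301b shares its cluster with miR-130b. The pooled count of miR-301b-3p per count of miR-301a-3p was lowest in CMs at 0.605, followed by ECs at 0.764, FBs at 0.798 and HCs at 0.882. In CMs the partner arm miR-301b-5p had 4 counts in all against 1087 of miR-301b-3p, and miR-130b-3p had 90. In HCs miR-301b-5p had 346 counts against 2200, and miR-130b-3p had 3023. How reads that fit more than 1 entry were counted is not given in the sources used here, so the split of reads between the 2 arms, which differ at A10G alone, is uncertain.

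The miRNAs with the pattern most like each 3p arm were picked by Pearson r of log2 levels over the 24 group means, among 712 miRNAs. For miR-130a-3p they were miR-145a-3p (r = 0.96), miR-143-5p (r = 0.94) and miR-145a-5p (r = 0.92), which come from hairpins known for smooth muscle and other mural cells. The main mural marker, miR-143-3p, was not among them. In CMs miR-143-3p fell in CPM from D0 to D14, while miR-130a-3p and miR-145a-5p rose. For miR-130b-3p they were miR-15b-5p (r = 0.91), miR-467d-3p (r = 0.89) and miR-467b-3p (r = 0.89). For miR-301a-3p, beside miR-301b-3p, they were miR-210-3p (r = 0.90), which is known for its induction in hypoxia, and miR-3068-3p (r = 0.89), and both were also the nearest to miR-301b-3p after miR-301a-3p (r = 0.87 and 0.89). Among the members, miR-130a-3p and miR-130b-5p ran opposite to each other over the 24 groups (r = -0.86), and the arms of mir-130b ran together (r = 0.83). All of these r are over group means that mix cell types, which share library batch and depth, and they are given as a description.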

How the data were processed

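Small RNA libraries of 96 pooled samples (4 cell types, 6 days, 4 replicates) were analysed from the values the authors deposited, which are raw counts of reads per mature miRNA and per hairpin of miRBase version 21 in 192 tables. Per the labels and the study's methods, libraries were made with a kit that ligates adaptors to both RNA ends, trimmed with Trim Galore (reads under 18 nt removed) and aligned with the nf-core small RNA pipeline. The submitters' processing notes name Bowtie2, SAMtools and mm10, with versions not given in the sources used here. The line for reads without a match, 25.6% to 83.0% of a mature table, was kept out of totals and tests.

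CPM were counts per 1000000 mature counts. Changes against D0, between D28 and D3 or D7, and over all days were tested within a cell type on its 24 libraries with the quasi-likelihood test of edgeR 4.0.16 in R 4.3.3 (TMM factors, filterByExpr, Benjamini-Hochberg over 484, 421, 563 and 608 miRNAs in CMs, ECs, FBs and HCs, threshold 0.05). Cell types and courses were tested on all 96 libraries and 712 miRNAs. Ratios of arms were tested with limma 3.58.1 on log2 values after adding 0.5 to each count, where both arms averaged 10 counts or more. The edgeR test of D7 against D0 within a cell type was checked on simulated counts with 200 miRNAs changed in both directions. The limma test was checked on simulated log ratios. A shift of most miRNAs to one side was not simulated, and the tests over 96 libraries were not checked in this way. Percent intervals are Clopper-Pearson at 95%. Python 3.11.15 handled the tables.

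The alternatives were DESeq2 1.42.0, scaling by library size, dropping the filter, the replicate number as a block, a fit on just the days compared, leaving out each library, leaving out the farthest library of 3 groups (FBs and HCs at D0, ECs at D28), a pseudocount of 5, a minimum of 50 counts per arm and other CPM totals. The study left 1 replicate out of each of these 3 groups without naming it, and all were kept here. The test of mir-301a was an addition made with its counts in view.

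The members, the gene lists and the tests were chosen with earlier results of these data known. Named beside the members were their partner arms, miRNAs with the same seed, markers of 6 cell types and the 3 miRNAs most like each 3p member. Replicates are pools of RNA, called both biological and technical in the study, so p-values measure the spread between pools. Figures were drawn with matplotlib 3.10.9.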

Additional observations from a re-analysis of the deposited data

Results flagged for a closer look

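In 5 of the 105 groups of 4 libraries that were examined for a library far from the other three, one stood apart, and chance alone gives about 1 in 20. For miR-130a-3p these were replicate 1 of ECs at D3, at 25.4 CPM against 43.2 to 45.1 CPM in the others, replicate 4 of ECs at D14, at 17.4 CPM on 20 counts against 36.2 to 38.9 CPM, and replicate 3 of HCs at D0, at 54.7 CPM on 1 count against 12.9 to 15 CPM. For miR-130b-5p they were replicate 2 of HCs at D7, at 286 CPM against 82.0 to 108 CPM, and replicate 4 of HCs at D14, at 50.3 CPM against 75.6 to 80.1 CPM.

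The course over the days differed between cell types for each of the 6 members, by the F test of cell type and day in edgeR. The adjusted p was 5.93e-13 for miR-130a-3p, 3.46e-05 for miR-130b-5p, 6.00e-05 for miR-130b-3p, 9.20e-05 for miR-301b-3p, 9.83e-05 for miR-301a-3p and 0.0090 for miR-130a-5p in edgeR, where 76.3% of all miRNAs tested passed. Some members had too few counts to be tested within ECs or HCs alone. What lies behind the different courses was not tested.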

How the results depend on the processing

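Scaling mattered most. With library size alone, 25 changes against D0 were called in CMs (12 with TMM factors) and 4 differences of D28 from D3 or D7 in ECs (2). It turned 4 differences between cell types: miR-130a-3p (-0.15) and miR-130a-5p (-0.87) between CMs and ECs, and miR-301a-3p (-1.04) and miR-301b-3p (-1.53) between CMs and HCs. The remaining differences of CMs from another cell type were also lower than with TMM factors. DESeq2 called 7 changes in ECs (4 in edgeR). In FBs 3 changes were called with no filter on low counts and 2 with the compared days alone (5). Calls on the ratio of the arms of mir-130a and mir-130b numbered 3 with a pseudocount of 5 and 0 with a minimum of 50 counts per arm, which mir-130a in FBs did not reach (1). With 1 library left out, the calls against D0 ran from 2 to 7 in ECs and from 2 to 6 in FBs, the members that varied in FBs from 1 to 4, those arm calls from 1 to 2, and the change of miR-130b-5p at D14 in CMs from -0.061 (without replicate 2 of D14) to 1.19. The cause of these shifts was not tested, beyond the smaller number of samples or miRNAs.

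The cell types of a day came from the same mice per the study, but neither it nor the labels state that equal replicate numbers mark the same pool, and libraries of the same number did not deviate together (r from -0.60 to 0.46 over 144 pairs of cell types within a day, median 0.05). The main tests over 96 libraries therefore leave out the sharing of mice. With the replicate number as a block (within a day where cell types were compared), CMs had 13 calls against D0, ECs 3, FBs 5 and HCs 19, 34 differences between cell types and 6 courses were called, and 5, 3, 3 and 5 members varied over the days. In CMs no library was left out as the farthest.

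Limits of depth: a count of 0 allows up to 3 counts, and in CMs at D0 the miR-130b arms had 0 to 3 counts per library, in ECs at D28 miR-130a-5p had 0 or 1. Falls below such levels were hardly detectable, and the calls made there rest on few counts.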
